A study of Ovis aries with 18 samples.

Results

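The genes described here are transcribed at a low level in the soleus of lambs and lower still in a pair of loin muscles. They were chosen by their measured values: a mean of at least 1 and below 10 FPKM over the soleus libraries, and a soleus mean at least 4 times the mean of each other muscle. FPKM is a read count scaled to the length of the gene and to the total reads of the library. Of 20477 genes in the table, 127 met this rule. Total RNA depleted of ribosomal RNA was sequenced from the soleus (SOL) of the lower hind leg, the psoas major (PM) or tenderloin, and the longissimus lumborum (LL) along the back, in 18 libraries with 6 from each. The muscles came from the left side of the carcasses; the labels give no breed, age, sex or treatment, and they do not tie a library number to a carcass. The p-values below therefore measure the spread between these libraries.

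Skeletal muscles are mosaics of slow, oxidative and fast, glycolytic fibres, and the soleus is known in many mammals as a postural muscle rich in slow fibres. Muscles of the limb and of the trunk also keep different patterning programmes from development, and every bulk sample contains vessels, nerve, connective tissue and blood besides fibres. A transcript at a few FPKM in such a sample may be present at a low level in every fibre or at a high level in a few cells. A rise in the share of a cell type and a rise of RNA per cell cannot be told apart in these data. The table gives genes by Ensembl sheep identifier, and 0 identifiers matched the gene names used, so that roles, sequences and positions of the members are not given here and the labelled muscles were not checked against their marker genes.

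The libraries held 10216739 to 14747118 counted reads, so 1 read on a gene of 1 kb was worth 0.0678 to 0.0979 FPKM. Some libraries stood apart. LL 3 had the fewest genes with a read (12704), and all LL libraries (at most 14552) lay below all PM libraries (at least 14647). SOL 5 had the fewest among SOL, 14181 against at least 14959. SOL 3 differed in 11 genes. These had at least 10 FPKM in both other muscles and were under 1% of that value in every other SOL library, while SOL 3 exceeded 1% for all 11. Values that move without these 3 libraries are given beside the results or with the other processing settings near the end.

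The members were faint in SOL and mostly near the detection limit elsewhere. Their SOL means ran from 1.03 to 9.79 FPKM with a median of 3.25, against medians of 0.247 FPKM in LL and 0.368 FPKM in PM. Summed over the 127 members, the level was 59.7 ± 15.6 FPKM in LL, 74.3 ± 17.4 FPKM in PM and 503 ± 96.6 FPKM in SOL (SD, n = 6 for every muscle). The SOL sums lay between 392.5 and 681.8 FPKM and those of the other muscles between 40.7 and 97.9, a gap that the choice of members fixes. The median member gathered 269 reads over the 6 SOL libraries, 30 over the PM libraries and 23 over the LL libraries. At the ends of that range, 20 members had under 100 SOL reads and 41 had 500 or more. By level, the median was 121 SOL reads for members at 1 to 2 FPKM and 809 at 5 to 10 FPKM. A short member could have fewer, as with 89 reads at 7.74 FPKM for 1 of 147 bp. Many LL and PM values rest on a few reads.

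**Figure D1:**
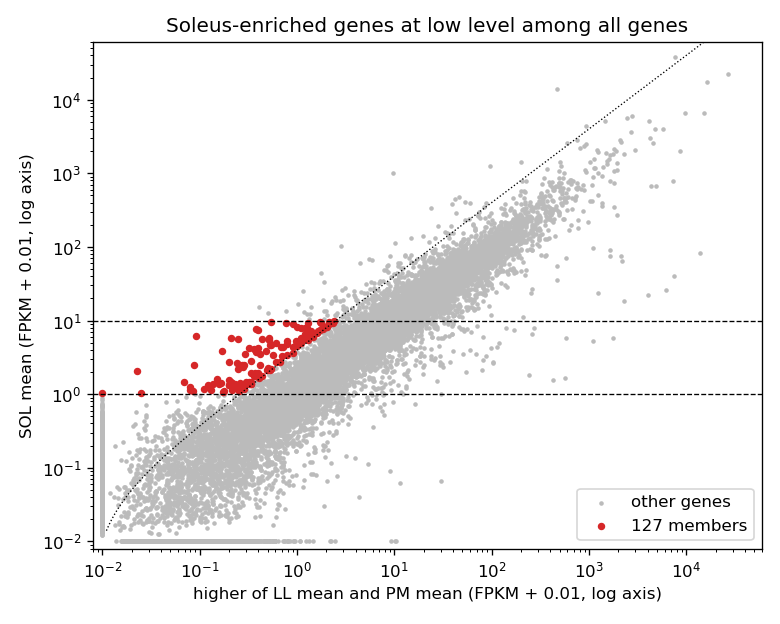
Mean level of every gene in SOL (vertical axis) against the higher of its LL and PM means (horizontal axis), both as FPKM + 0.01 on log axes. Dashed lines mark 1 and 10 FPKM in SOL, the dotted line a 4-fold excess, and the 127 red points are the members, of which 45 have a ratio under 5 and 31 a ratio of at least 10.

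The members ranged from the edge of the rule to well beyond it. The ratio of the SOL mean to the higher of the LL and PM means had a median of 5.81. It was under 5 for 45 members and at least 10 for 31. The closest member inside had 9.32 FPKM in SOL and 2.32 in LL, a ratio of 4.015, and the closest gene outside had 9.00 FPKM in SOL and 2.25 in PM, a ratio of 3.998. A further 93 genes in the same range of SOL levels had a ratio of 3 to 4. At the lower level limit, the lowest SOL mean inside was 1.03 FPKM and the highest outside 0.981. At the upper limit the corresponding means were 9.79 and 10.4 FPKM. No gap in the values separates the members from these neighbours.

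By level, 47 members had a SOL mean of 1 to 2 FPKM, 38 of 2 to 5 and 42 of 5 to 10. They were 3.88%, 1.73% and 1.62% of all genes in those ranges, and at 10 FPKM or more 1.57% of genes (105) passed the same fold rule. Detection outside SOL followed the level. A read was found in every LL library for 0 of the 47 lowest members and for 14 of the 42 highest, and in every PM library for 8 and 28 of them. Over all members, 51.2% of LL values, 25.9% of PM values and 3.28% of SOL values were 0. Among the other 5877 genes at 1 to 10 FPKM in SOL, these shares were 6.62%, 1.74% and 1.14%. The fold rule caps the LL and PM means of a member by its SOL mean, while those genes have no such cap. The choice of members thus fixes part of this contrast and of the trend with level. The members at 0 numbered 43 to 97 per LL library, highest in LL 3, 25 to 39 per PM library and 0 to 7 per SOL library. The LL libraries also detected fewer genes in general, and the part of this in the higher LL share was not tested.

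**Figure D2:**
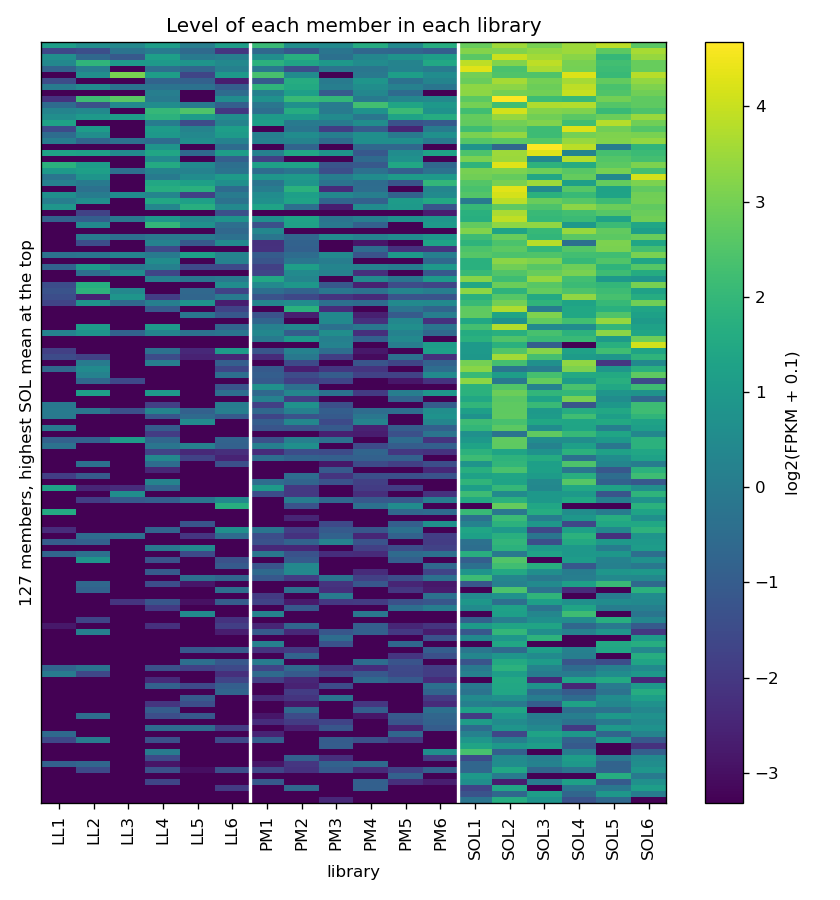
Level of the 127 members as log2(FPKM + 0.1) in each of the 18 libraries, with the highest SOL mean in the top row and white lines between the muscles. The 6 SOL columns are brighter than the LL and PM columns, where dark cells (0 FPKM) become common toward the bottom; LL 3 holds the most, 97.

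In the model of all 15434 genes tested (limma on log2(FPKM + 0.1), Benjamini-Hochberg adjusted p under 0.05), 121 of 127 members were called higher in SOL than in LL, where 17.1% of all genes were called higher. Against PM 104 members were called, where 11.0% of all genes were. The rule used both comparisons, so these counts describe the members and test nothing, and both share the SOL libraries. Every member passed the low-value filter through its SOL values. The fitted log2 fold changes had a median of 3.08 against LL and 2.51 against PM, beside 0.24 and 0.15 over all genes tested. Median-ratio scaling of the libraries lowered these last medians to 0.12 and 0.03. From the means, with members lacking reads set to a floor of 3 reads over the muscle, the median folds were 9.96 over LL and 6.59 over PM. Complete separation was less common than a call. Each SOL library exceeded each LL library for 61 members, where this held for 7.25% of all genes tested. Each SOL library exceeded each PM library for 60 members, beside 6.75% of all genes tested. Both held for 47 members, beside 4.25% of all genes tested.

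The 24 members missed in 1 or both comparisons had, by their medians, fewer reads and a wider spread in SOL. Of these, 18 were called only against LL, 1 only against PM and 5 in neither. They had a median of 122.5 SOL reads, compared with 301 for the 103 called in both, and 12 of the 24 had at least 1 SOL library at 0, compared with 4 of the 103. Their median coefficient of variation among SOL libraries (the SD as a percentage of the mean) was 90.8%, compared with 56.6%.

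Among members without overlap between SOL and LL, ENSOARG00020010510 (recovered length 657 bp) had the largest fitted difference. Its lowest, median and highest values were 3.79, 5.48 and 8.26 FPKM in SOL and 0, 0.127 and 0.611 FPKM in PM. In LL it was at 0 in 5 libraries and at 0.241 FPKM, 2 reads, in LL 4. SOL 5 was the highest and SOL 3 the lowest SOL library, and every SOL value was more than 6 times the highest value outside SOL. The log2 fold change was 5.52 (SE 0.49) against LL and 4.35 (SE 0.49) against PM. Per library total, SOL held 133 times as many reads of it as LL, with an exact 95% counting interval of 36.5 to 1104. The interval covers counting error only and tests nothing, since the member was picked for its difference from LL.

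ENSOARG00020010593 (1620 bp) came next against LL, with 5.44, 7.78 and 15.9 FPKM as the lowest, median and highest SOL values. SOL 4 was the highest, and the others reached at most 9.92 FPKM. In LL 4 libraries were at 0, LL 4 stood at 0.976 and LL 6 at 0.608 FPKM. In PM the values were 0, 0.805 and 2.2002 FPKM, so that the highest PM library remained below the lowest SOL library. The log2 fold change was 5.39 (SE 0.72) against LL and 3.64 (SE 0.72) against PM.

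Against PM, ENSOARG00020000940 (1553 bp) differed most. It ranged over 3.28, 5.25 and 12.4 FPKM in SOL, with SOL 2 at the top and the next library at 7.01 FPKM. PM held 1 read of it in all, in PM 6, against 757 reads in SOL. Scaled to library totals, SOL held 715 times as many reads (exact 95% counting interval 128 to 28260). LL held 9 reads, in LL 2 and LL 6 (0.201 and 0.288 FPKM). With only 1 read behind the PM value, the interval is wide. The member was picked for this difference and the interval covers counting error only, so neither end tests the size of the difference. Its SOL values varied by 52.9% among libraries, where counting alone would give 8.90%. The fitted log2 fold change was 5.74 (SE 0.46) against PM and 5.25 (SE 0.46) against LL.

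ENSOARG00020006334 (327 bp) was second against PM, from a much shorter gene with 147 SOL reads. Its SOL values were 2.13, 5.33 and 10.8 FPKM, high in SOL 4 (10.8) and SOL 1 (8.76) and low in SOL 2 and SOL 6 (2.41 and 2.13). A single library in each other muscle had reads, PM 1 at 1.20 FPKM (5 reads) and LL 6 at 0.548 FPKM (2 reads). The SOL libraries thus overlapped neither muscle, although SOL 6 and PM 1 lay close together. The log2 fold change was 5.02 (SE 0.68) against PM.

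**Figure D3:**
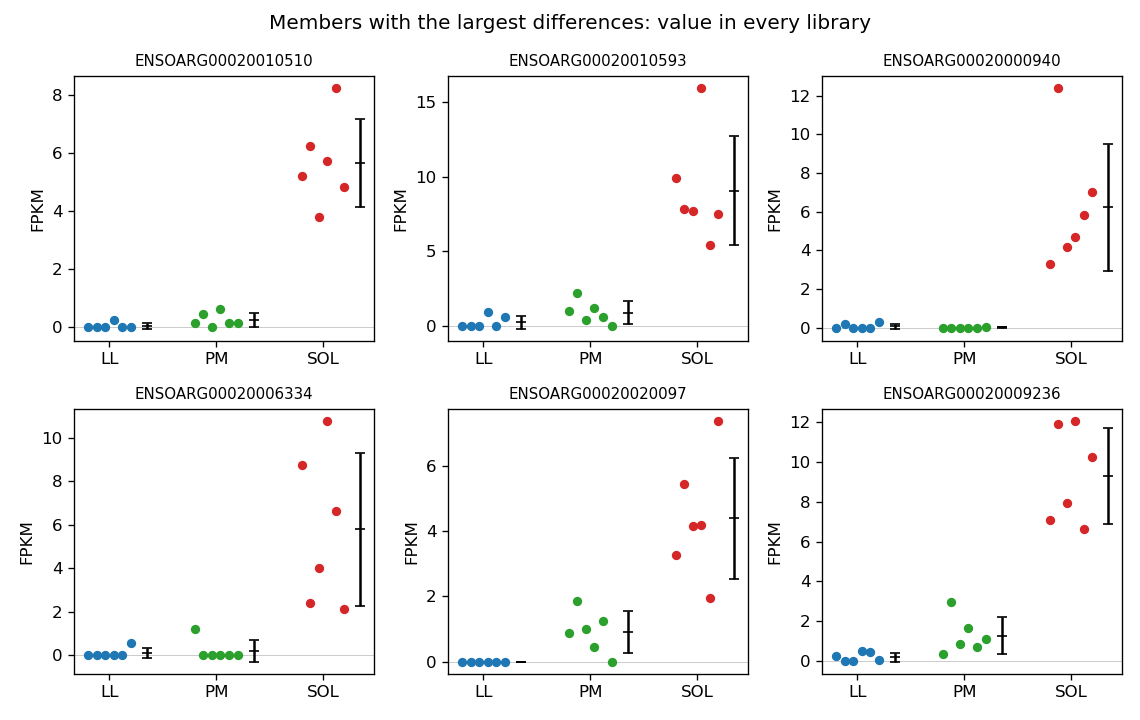
FPKM in each of the 18 libraries for the 6 members with the largest differences; points are libraries in number order and black bars the mean ± SD (n = 6). The top row and the lower left panel show the largest differences of SOL from LL and from PM, and the other lower panels the members called in PM against LL; in all 6 the lowest SOL point lies above the highest LL and PM points.

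Reads were absent from whole muscles for a minority of members. No LL library had a read of 14 members, no PM library had a read of 2, and 13 and 7 more had 1 to 3 reads over LL and over PM. With a floor of 3 reads over the 6 LL libraries taken in place of 0, the SOL means of the 14 were higher by at least 4.62-fold, and for the largest by at least 155-fold. Their SOL reads ranged from 16 to 533, and 6 of the 14 had a read in every SOL library. One member, ENSOARG00020000130 (1765 bp), had no read in either muscle; it is named after its values were seen. It stood at 0.316, 0.728 and 2.11 FPKM as the lowest, median and highest SOL values, 148 reads in all, with SOL 3 and SOL 5 (1.77) above the other 4 libraries, which reached at most 0.919 FPKM. Its mean of 1.03 FPKM was at least 42.9-fold above the LL floor and at least 44.9-fold above the PM floor. Without SOL 3 or SOL 5 its mean falls under 1 FPKM and it leaves the set.

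The best counted member was ENSOARG00020004398, chosen after its values were seen for its recovered length of 14851 bp and its 11173 SOL reads. Its lowest, median and highest values were 6.26, 9.63 and 12.3 FPKM in SOL, 0.362, 0.525 and 0.763 in PM and 0.133, 0.426 and 0.900 in LL, and every library had reads. The SOL mean was 18.4 times the PM mean. The SOL libraries differed by 22.0%, and counting error alone, which is only part of a spread between separate samples, would give 2.32%. Only 18 members had a read in all 18 libraries.

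The members varied widely among the SOL libraries. The coefficient of variation had a median of 61.5% and ran from 20.8% to 168%. It was under 30% for 11 members and at least 100% for 12. Counting error alone, taken from the mean number of reads, would give a median of 14.9%, and 120 members exceeded 2 times their own counting value. The median fell with level, from 72.0% at 1 to 2 FPKM through 66.4% to 47.3% at 5 to 10 FPKM. The other genes at 1 to 10 FPKM in SOL had a median of 35.2%, and the 105 genes that passed the fold rule at 10 FPKM or more 33.0%. Both sets had more reads, with medians of 512 and 5389 SOL reads beside 269 for the members. Genes with a mean of 0.1 to 1 FPKM had a median spread of 92.7% on a median of 37 SOL reads. The part of read number in these differences was not tested. The spread of the members is not independent of the choice, because 1 high library raises the SOL mean that the rule reads.

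The extremes show both kinds. ENSOARG00020021665 (2564 bp), the steadiest, stood between 4.76 and 8.53 FPKM in SOL with a median of 7.72 and had reads in every library of the study. ENSOARG00020018150 (177 bp), the least steady, had 15 SOL reads. It stood at 4.95 FPKM in SOL 1, at most 0.948 in the other SOL libraries and 0 in SOL 3 and SOL 5. PM 6, at 1.46 FPKM, exceeded every SOL library but SOL 1, and LL 4 was at 0.894 FPKM. ENSOARG00020011105 (168 bp) stood at 17.5 FPKM in SOL 6, between 0.436 and 3.29 FPKM in 4 libraries and at 0 in SOL 4. These 3 are named after their values were seen. In all, 7 members held over 50% of their summed SOL level in 1 library (3 of them in SOL 2 and 1 each in SOL 1, SOL 3, SOL 4 and SOL 6), on 15 to 206 SOL reads each.

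The highest value of a member fell in SOL 2 for 47 members, in SOL 4 for 24, in SOL 3 and SOL 6 for 15 each and in SOL 1 and SOL 5 for 13 each. SOL 2 was the highest library as often among other genes of this level, 37.0% of members beside 37.7% of the others. The shares differed for SOL 4, at 18.9% of members and 8.73% of the others, and for SOL 6, at 11.8% and 20.5%. For the 105 genes passing the fold rule at 10 FPKM or more, SOL 4 had 17.1%, SOL 6 18.1% and SOL 2 25.7%. The SOL 4 share of the members was thus near that of these 105 genes. None of these differences was tested. SOL 2 and SOL 6 also had the largest median-ratio factors, 1.21 and 1.15. After scaling by these factors the counts were 39 for SOL 2, 27 for SOL 4, 17 for SOL 3 and for SOL 5, 14 for SOL 1 and 13 for SOL 6. The median member was 1.52 times as high in SOL 2 as the median of the other SOL libraries, and the median of the other genes at this level 1.28 times.

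**Figure D4:**
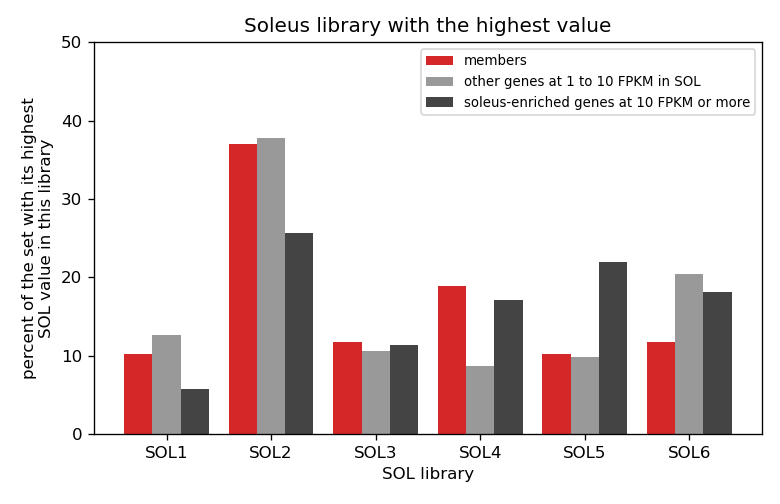
Percentage of each gene set whose highest SOL value lies in a given SOL library, for the 127 members (red), the 5877 other genes at 1 to 10 FPKM in SOL (grey) and the 105 genes that pass the fold rule at 10 FPKM or more (dark). Members and other genes of this level are alike for SOL 2 (37.0% and 37.7%) and apart for SOL 4 (18.9% and 8.73%). The 105 genes lie at 25.7% for SOL 2 and 17.1% for SOL 4.

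The membership rests partly on single libraries. Without its own highest SOL library, 55 of the 127 members no longer met the rule, 18 of them because the mean of the remaining libraries was under 1 FPKM. Leaving out 1 library at a time, from 92 (without SOL 2) to 122 (without LL 4) of the members were kept, and 66 were kept whichever single library was left out. Without LL 3, SOL 3 and SOL 5 together, 102 of the 127 were kept.

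The rule sets no order between PM and LL, but it caps both means by the SOL mean. Members also passed the low-value filter through their SOL values. Of their values, 51.2% in LL and 25.9% in PM were 0, which limits what this comparison can show. Only 2 members were called, or 1.57%, near the 1.48% called among all 15434 genes tested (limma adjusted p under 0.05); both were higher in PM. At an unadjusted p under 0.05 there were 11 members, 10 higher and 1 lower in PM, or 8.66% beside 12.7% of all genes. Genes nearer in level were called less often. The share was 0.885% of the other genes at 1 to 10 FPKM in SOL and 0.382% of genes with a mean of 0.1 to 1 FPKM. With 2 members called, these differences in share were not tested. Of the 105 genes above 10 FPKM that passed the same fold rule, 13 (12.4%) were called, 12 of them higher in PM. At an unadjusted limma p under 0.05 their share was 36.2%. They had a median of 5389 SOL reads, beside 269 for the members, and the part of this in the difference was not tested. No member had every PM library above every LL library or the reverse, orders found in only 0.719% and 0.609% of all genes tested, so that a count of 0 does not set the members apart.

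ENSOARG00020020097 (900 bp) was at 0 in all 6 LL libraries. In PM its lowest, median and highest values were 0, 0.934 and 1.86 FPKM, 62 reads in all, with only PM 6 at 0. The fitted log2 fold change was 2.87 (SE 0.56, limma adjusted p = 0.0097). From the means, PM exceeded the LL floor at least 19.2-fold, a bound that was not tested, with reads in 5 of 6 PM libraries. SOL held 1.96, 4.17 and 7.38 FPKM, so that the muscles stood in the order LL, PM, SOL, with 1 PM library at the LL level. With a pseudocount of 1 in place of 0.1 the call was lost (limma adjusted p = 0.093).

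ENSOARG00020009236 (1623 bp) stood at 0, 0.158 and 0.487 FPKM in LL, with 25 reads, and at 0.385, 1.00 and 2.96 FPKM in PM, with 159 reads. The LL and PM libraries overlapped, since LL 4 and LL 5 lay above PM 1. The log2 fold change was 2.29 (SE 0.52, limma adjusted p = 0.027), and the SOL values of 6.64 to 12.0 FPKM lay above both. This call did not hold without any 1 of LL 2, LL 3, PM 2, PM 4 or PM 6 (limma adjusted p = 0.053, 0.057, 0.078, 0.068 and 0.057). The pseudocount of 1 (0.083), voom on recovered reads (0.057) and a fit of only LL and PM (0.12) also put the limma adjusted p above 0.05. So did leaving out LL 3, SOL 3 and SOL 5 together (limma adjusted p = 0.081). ENSOARG00020021665, described above as the steadiest member, was the 1 lower member among the 11. It stood at 0.582 ± 0.186 FPKM in PM and at 1.26 ± 0.623 FPKM in LL (SD, n = 6 libraries a muscle), and the log2 fold change was -0.93 (SE 0.34, limma adjusted p = 0.23).

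Below the threshold, the members leaned to PM over LL. The fitted log2 difference was positive for 104 of 127 members (81.9%), with a median of 0.52, while over all genes tested 56.8% were positive with a median of 0.06. Genes with a mean of 0.1 to 1 FPKM over all libraries lay between, at 67.7% and 0.31, as did the 105 genes above 10 FPKM that passed the fold rule, at 69.5% and 0.35. From the means, PM exceeded LL for 86 of the 127 members. The median log2 ratio of the means was 0.37 over the 121 members with a ratio, with muscles lacking reads set to the floor. The positive fitted differences fell from 104 to 89 of 127 members without LL 3, the library with the fewest genes, with a median of 0.40. With a pseudocount of 1 the fitted difference was positive for 90 of 127, with a median of 0.12. LL libraries had 0 reads for 33.9% to 76.4% of members and PM libraries for 19.7% to 30.7%, and the part of this in the lean was not tested.

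**Figure D5:**
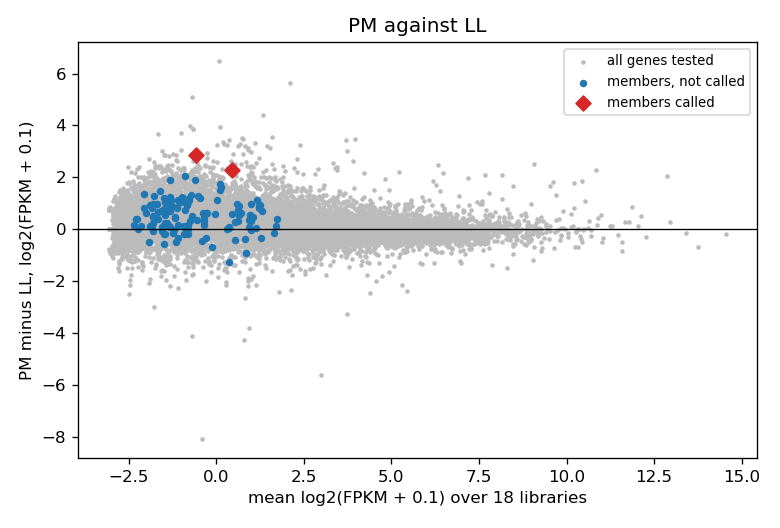
Difference of PM from LL in log2(FPKM + 0.1) against the mean of log2(FPKM + 0.1) over the 18 libraries, for the 15434 genes tested (grey), the members (blue) and the 2 members called (red diamonds). Most members, 104 of 127, lie above 0, within the range of other genes at their level.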

How the data were processed

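The deposited table gives FPKM per gene and library. Per the labels' protocols, RNA was extracted with TRIzol, depleted of ribosomal RNA and copied with random hexamers; reads were trimmed, HISAT2 (2.2.1) aligned them and StringTie (2.2.0) assembled transcripts. DESeq is listed in the submitters' processing notes with no role. The sources used here do not give the genome build, annotation, counting program or strand setting, so overlapping and antisense genes and near-identical copies may share reads.

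The unit was tested on the values: each FPKM as deposited lay within 0.05 of whole reads for 1 whole gene length and 1 library total. Reads, lengths (the smallest that fit) and totals were recovered this way. The planned limma (3.58.1, R 4.3.3) model used log2(FPKM + 0.1), a minimum mean of 0.1 FPKM per gene, 1 coefficient per muscle, the variance trend and two-sided Benjamini-Hochberg adjusted p-values over 15434 genes, with 15 residual degrees of freedom. Fold changes on this scale are understated for low genes. Counting intervals and floors cover counting error only. The recovery of reads and the limma model were tested on simulated data.

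The members, lists and tests were chosen with earlier results of these data known. Marker and pathway lists had no members to test, since identifiers could not be paired with names. Named genes are the 2 members with the largest fitted difference from LL, and from PM, without overlap, and the members called in PM against LL; the rule left other members without an identifier, and the 5 further ones singled out are an exception to it, named after their values were seen. No block was used in the reported model. Same-numbered SOL and PM libraries deviated together (r from 0.13 to 0.23, each above 0.1), which comes from the data, since the labels do not tie numbers to carcasses. For LL the lowest such r was 0.090 with PM and 0.086 with SOL, under 0.1. Differently numbered libraries reached at most 0.017 for SOL with PM, 0.0070 for LL with PM and 0.052 for LL with SOL. In each pair of muscles, LL included, every same-numbered r thus lay above every differently numbered one. The reported model leaves this dependence out. The replicate number entered only an alternative fit.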

Additional observations from a re-analysis of the deposited data

Results flagged for a closer look

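Dixon's test at the 95% level asked whether 1 of the 6 libraries of a muscle lay apart in the summed level of the members, in the number of members at 0, or in any of the 6 members named by rule. Of 24 sets, 4 stood out, where chance flags about 1 in 20; that figure does not apply where 1 library has reads and the others have none, as in all 4 here. ENSOARG00020000940 had a single read in PM 6, equal to 0.0556 FPKM. ENSOARG00020006334 stood at 0.548 FPKM in LL 6 and at 1.20 FPKM in PM 1. ENSOARG00020010510 stood at 0.241 FPKM in LL 4. The other libraries of each set were at 0.

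By the same measure, 15 of the 127 members (11.8%) had a SOL library apart from the rest, in each case a high one, and 9 of these were high in SOL 2. Among other genes at 1 to 10 FPKM in SOL the share was 8.54%.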

How the results depend on the processing

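The number of genes meeting the rule was 220 with a 3-fold and 82 with a 5-fold limit. It was 161 by medians, of which 96 were among the 127, and 101 after median-ratio scaling, of which 99 were. Members called in SOL against LL and against PM fell to 70 and 61 with a filter of 1 FPKM, which tested only 71 members. Under the other planned settings they numbered 113 to 122 and 70 to 118, with 70 at a pseudocount of 0.01. Without LL 3, SOL 3 and SOL 5, a setting that was not planned, they numbered 109 and 100. With the replicate block the counts were 122 and 109, and 102 of the 104 calls against PM were shared. Members called in PM against LL numbered 0 with a pseudocount of 1 (5 at an unadjusted limma p under 0.05, beside 11 as reported), 4 with 0.01, 1 in the fit of the 12 libraries, 1 with voom on recovered reads, 1 without LL 3, SOL 3 and SOL 5 (chosen after seeing the data), 1 to 3 with 1 library left out, and 2 with the replicate block. No sign changed among 162 recomputed differences of named members; 10 lost their call, all in PM against LL. The labels share numbers across muscles; every library correlated best with its own number in all 3 pairs of muscles, a hint from the data and not the design. Depth limits LL and PM most, where the median member has 23 and 30 reads.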

Other observations

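The median recovered length of the members was shorter than that of other genes at their level, and lengths were more often divisible by 3. The median was 1362 bp, beside 1554 bp for the 5877 other genes at 1 to 10 FPKM in SOL and 1401 bp for the 105 genes above 10 FPKM that passed the fold rule. It rose with level, from 1109 bp for members at 1 to 2 FPKM through 1275 bp to 1550.5 bp at 5 to 10 FPKM. All genes with a mean of 0.1 to 1 FPKM had a median of 1239 bp. Lengths ran from 147 to 14851 bp, with 15 members under 500 bp and 15 over 3000 bp. A length divisible by 3 was found for 68.5% of members, 56.3% of the other genes at this level and 48.6% of the 105. The share went with level: 78.7% of members at 1 to 2 FPKM, 61.9% at 5 to 10 FPKM, and 71.6% of all genes with a mean of 0.1 to 1 FPKM. No test was made of these shares.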
